A study of Zea mays with 6 samples.

Results

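Transcripts of 5 maize genes of C4 carbon fixation were followed in shoot tips of seedlings with an extra copy of most of the chromosome 5 short arm. The genes were pep1, PPCK1, mdh6, pdk1 and gpa1. They were found as the probe sets whose single gene symbol or synonym in the platform annotation, updated through RefSeq, matched 1 of these names with the same letter case. This gave 9 probe sets, 5 of them for pdk1, of 1452 probe sets that carry a single gene name on the array and stand for 1108 genes. Letter case matters here because the name PDK1 also belongs to a pyruvate dehydrogenase kinase gene, whose 2 probe sets were left out.

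The study compared DpDf plants (duplicate-deficient, from the translocation T5-6b) with wild-type siblings of the same families, all in the B73 inbred background after over 10 generations of backcrossing. DpDf plants carry 3 copies of most (about 90%) of the chromosome 5 short arm and 1 copy of a small terminal piece of the chromosome 6 short arm, and wild-type siblings carry 2 copies of both. Both genotypes came from a self-pollinated DpDf plant and were told apart with a DNA marker. There were 3 pools of each genotype, each with shoot tips of 8 plants of 14 days. The tips were about 1 cm of tissue with the shoot apical meristem and leaf primordia, taken in the morning. All plants had a light period of 16 hours. Each pool was hybridised to 1 Affymetrix maize array, so the number of arrays limits the precision. Every DpDf plant carried both the duplication and the deficiency, so effects of the 2 cannot be told apart.

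In C4 leaves such as those of maize, phosphoenolpyruvate carboxylase (PEPC) fixes bicarbonate in mesophyll cells, the resulting oxaloacetate is reduced to malate, and malate is decarboxylated in bundle sheath cells, where the Calvin cycle refixes the carbon dioxide. Pyruvate then returns to the mesophyll, and pyruvate orthophosphate dikinase (PPDK) turns it back into phosphoenolpyruvate. Transcripts of these enzymes are known to be scarce in the meristem and to accumulate as the leaf greens. The gene pep1 encodes the C4 form of PEPC, PPCK1 a kinase that phosphorylates PEPC and so relieves its inhibition by malate, mdh6 the chloroplast NADP-malate dehydrogenase and pdk1 PPDK. The gene gpa1 encodes subunit A of the chloroplast glyceraldehyde-3-phosphate dehydrogenase, an enzyme of the Calvin cycle. None of these genes lies on the part of the genome whose copy number differs, as far as it was set here. PPCK1 is on chromosome 5 but outside its first 40%, taken as the short arm, and pdk1 is on chromosome 6 outside its first 3%, taken as the tip.

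The 6 arrays were not equally alike. Wild type replicate 3 had a median intensity of 415.9, against 490.9 to 506.1 on the others, and it correlated with no other array above a Spearman coefficient of 0.932, while the other 5 correlated with one another at 0.988 or more. It read lowest of the 6 arrays for 76.1% of the 10661 probe sets tested and for 7 of the 8 tested here. With it the median probe set differed by 0.18 on the log2 scale (DpDf minus wild type), and without it by 0.02, so each result is given both ways and also relative to that median. The ratio of 3′ to 5′ signal in 5 control transcripts, a sign of RNA quality, was higher in each DpDf pool (1.96, 0.99 and 0.95 on the log2 scale, replicates 1 to 3) than in any wild-type pool (0.64, 0.71 and 0.71). The two-sided exact permutation p of 0.1 is the lowest possible for groups of 3. The meristem marker kn1 read 9.77 to 10.42 on the log2 scale, over the background bound on every array, and 10 of 14 genes of leaf primordia passed the bound on at least 3 arrays. The bound is the 40th percentile of each array, 8.28 to 8.33. The meristem genes abph1, lg4b and nam1 lay under it on all 6 arrays, and the root gene zrp4 read 8.08 to 8.70.

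None of the 5 genes passed the test between DpDf and wild type. The test was that of limma, fitted over all probe sets kept, with a Benjamini-Hochberg adjusted p under 0.05 as the threshold. Of the 8 member probe sets tested, 0 were called from the full set of arrays, where 0.0281% of all probe sets were, and 0 once wild type replicate 3 was left out, where 3.33% were. The unadjusted limma p was under 0.05, with DpDf higher, for 4 of the 8 in each setting (1 of PPCK1 and 3 of pdk1), against 8.8% and 13.5% of all probe sets. In 6 of the 8 every DpDf pool exceeded every wild-type pool on the deposited values, with no further scaling between arrays. This held with and without wild type replicate 3, against 23.2% and 25.4% of all probe sets. These 6 come from 4 genes, and for 2 of them, mdh6 and gpa1, the gap between the groups was only 0.017 and 0.0033 on the log2 scale.

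**Figure D1:**
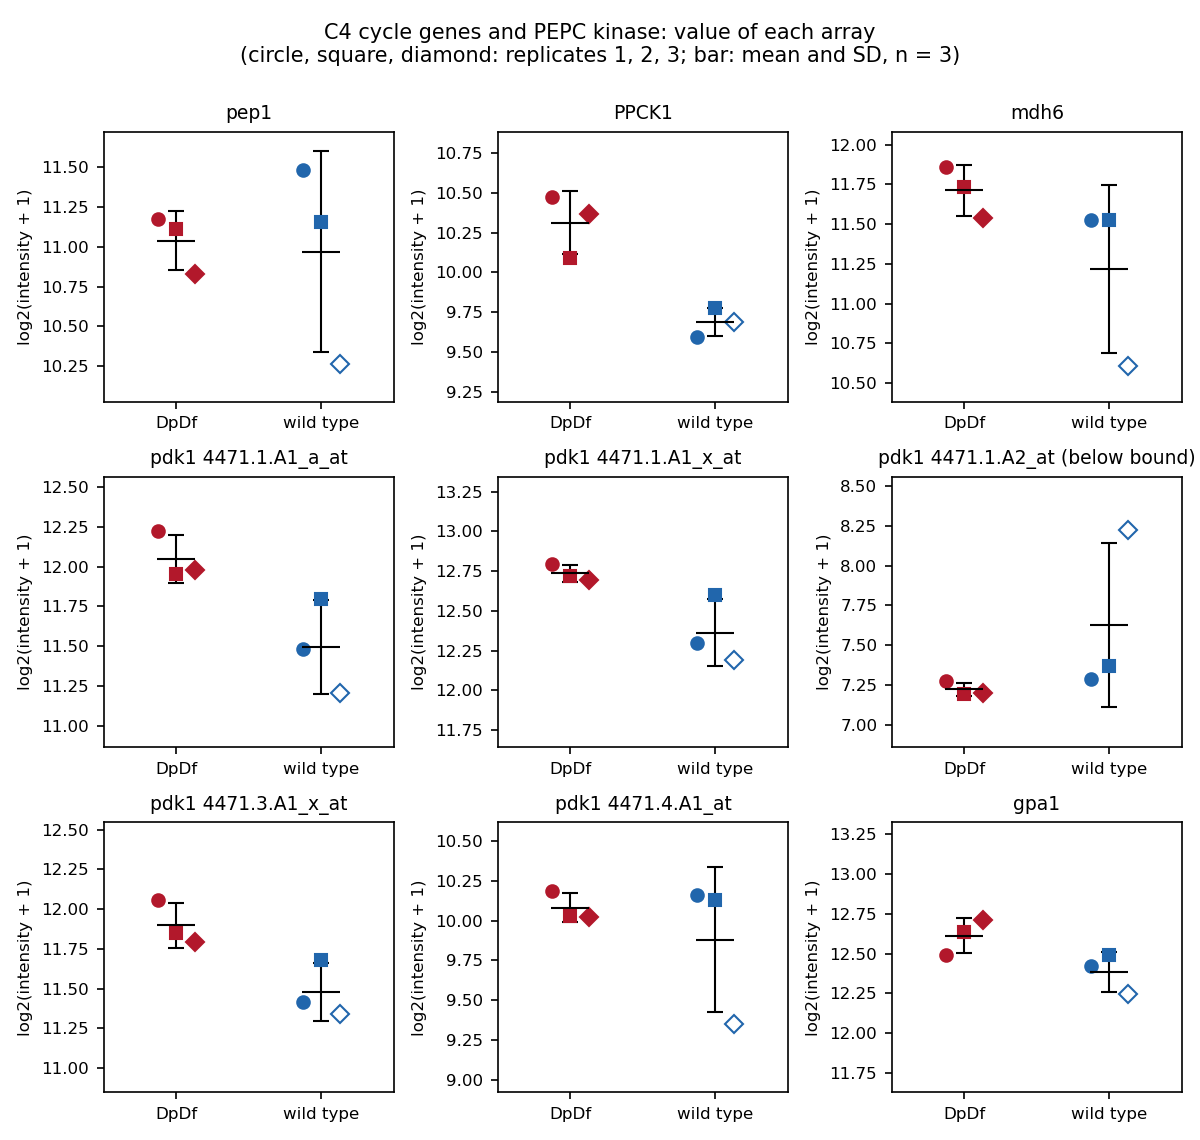
Each panel plots 1 probe set, with log2(intensity + 1) on the vertical axis over a span of equal height in all panels, the 3 DpDf pools on the left and the 3 wild-type pools on the right. Bars give mean and SD (n = 3) and the open diamond is wild type replicate 3. The PPCK1 panel shows the widest gap between the groups, from 9.78 to 10.09.

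PPCK1 (LOC606483), the PEPC kinase gene, gave the largest difference among the members. Its log2(intensity + 1) values, the scale of all levels below, were 10.48, 10.09 and 10.37 for DpDf and 9.60, 9.78 and 9.69 for wild type, always in the order of replicates 1 to 3. All DpDf pools were higher, and the group means were 10.31 ± 0.20 and 9.69 ± 0.09 (SD, n = 3 each). On the deposited values, with no further scaling between arrays, wild type replicate 3 lay between the other 2 wild-type pools for this gene. The difference was 0.62 ± 0.15 on the log2 scale (SE), a 1.54-fold ratio with a 95% interval of 1.21 to 1.96, and did not pass the test (limma adjusted p = 0.302). Without wild type replicate 3 it was 0.63 ± 0.13, again a 1.54-fold ratio (1.25 to 1.90), and lay just outside the threshold (limma adjusted p = 0.0513). Relative to the median of all probe sets the differences were 0.45 and 0.61, and 8.82% and 2.30% of all probe sets lay farther from that median. With array quality weights, which gave wild type replicate 3 a weight of 0.042, it passed at 0.51 (limma adjusted p = 0.0073), where 11.5% of all probe sets were called. It also passed at 0.54 without both that pool and DpDf replicate 1 (limma adjusted p = 0.0363), where 7.06% were called. With the replicate number as a block and the third pair of pools left out it did not, at 0.60 (limma adjusted p = 0.168, with 0.0375% of all probe sets called). Adjusted p-values ran from 0.0073 to 0.838 over the 19 settings, and the difference was above 0 in all of them, from 0.43 to 0.73.

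DpDf replicate 1 had both the highest PPCK1 value and the highest 3′ over 5′ signal. Without that pool the PPCK1 difference was 0.54, and the mean 3′ to 5′ signal of the other 2 DpDf pools was 0.97, still above every wild-type pool. The part of that signal in the PPCK1 difference was not tested. Pools of the same replicate number were drawn from the same lot of sibling seedlings, as the labels describe it, and within these pairs DpDf exceeded wild type by 0.88, 0.31 and 0.68 for replicates 1 to 3. In bulk tissue, more RNA per cell and more cells that express a gene cannot be told apart. PEPC kinase genes form a small family in maize, and binding of the other members to this probe set was not tested.

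**Figure D2:**
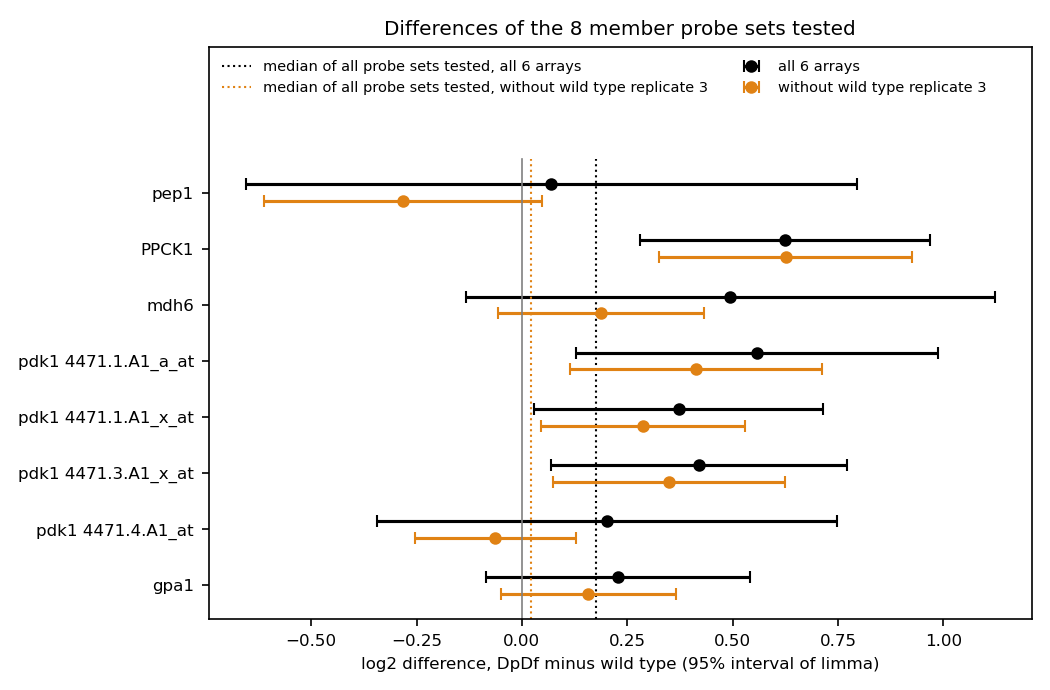
The horizontal axis gives the log2 difference, DpDf minus wild type, and each point is a member probe set with its 95% interval from limma, in black for all 6 arrays and in orange without wild type replicate 3. Dotted lines mark the median of all probe sets tested, 0.18 and 0.02. PPCK1 and 3 probe sets of pdk1 lie to the right of 0 with both intervals, while pep1 and the A1_at probe set of pdk1 change side.

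The PEPC gene itself gave overlapping groups. For pep1 (LOC542372) the DpDf pools read 11.18, 11.11 and 10.83 and the wild-type pools 11.48, 11.16 and 10.27. Wild type replicate 1 was the highest of the 6 pools and wild type replicate 3 the lowest. Group means were 11.04 ± 0.19 and 10.97 ± 0.63 (SD, n = 3 each). The difference of 0.07 had a 95% interval from -0.65 to 0.79 (limma adjusted p = 0.91). Without wild type replicate 3 it turned to -0.28 (interval -0.61 to 0.05, limma adjusted p = 0.297), and relative to the median of all probe sets the differences were -0.11 and -0.30. With all 6 arrays it also turned, to -0.12, under quantile normalization and under median centring, so the direction of pep1 depends on that array and on the scaling.

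The gene mdh6 (LOC542374), which supplies the malate exported to the bundle sheath, read 11.86, 11.74 and 11.54 in DpDf and 11.52, 11.53 and 10.60 in wild type. DpDf pools were above wild-type pools, but the lowest of them only by 0.017. The group means were 11.71 ± 0.16 and 11.22 ± 0.53 (SD, n = 3 each). The difference of 0.49 with all 6 arrays (95% interval -0.13 to 1.12, limma adjusted p = 0.562) was 0.19 without wild type replicate 3 (-0.06 to 0.43, limma adjusted p = 0.34). Within pairs of the same number the difference was 0.34, 0.21 and 0.94.

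A total of 5 probe sets stood for pdk1 (LOC542759), whose RefSeq synonyms C4ppdkZm1 and cyppdkZm1 name its chloroplast and cytosolic forms, made from the same gene through separate promoters. In Affymetrix names the ending _a_at marks probes shared by transcripts of a gene and _x_at probes that may also bind related transcripts, such as those of the other cytosolic PPDK gene of maize. The _a_at probe set read 12.22, 11.95 and 11.98 in DpDf and 11.48, 11.80 and 11.21 in wild type. All DpDf pools lay higher, with means of 12.05 ± 0.15 and 11.49 ± 0.30 (SD, n = 3 each). The difference was 0.56 ± 0.18 (SE, limma adjusted p = 0.42) with all 6 arrays and 0.41 ± 0.13 (limma adjusted p = 0.143) without wild type replicate 3, or 0.38 and 0.39 above the median of all probe sets.

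Both _x_at probe sets of pdk1 also read higher in DpDf. The first read 12.79, 12.72 and 12.70 in DpDf and 12.30, 12.60 and 12.19 in wild type. The second read 12.06, 11.85 and 11.79 in DpDf and 11.42, 11.68 and 11.34 in wild type. In both the groups did not overlap, with differences of 0.37 and 0.42 (limma adjusted p = 0.488 and adjusted p = 0.442), and of 0.29 and 0.35 without wild type replicate 3 (limma adjusted p = 0.189 and adjusted p = 0.17). These 3 probe sets may bind the same transcripts and are not independent evidence. In replicate 2 their DpDf excess was smallest, 0.12 to 0.17, against 0.45 to 0.77 in the others.

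The other 2 probe sets of pdk1, with the endings A1_at and A2_at, gave other values. The A1_at probe set read 10.19, 10.03 and 10.03 in DpDf and 10.16, 10.13 and 9.35 in wild type. Its groups overlapped, since wild type replicates 1 and 2 read above DpDf replicates 2 and 3. Its difference was 0.20 (95% interval -0.34 to 0.75, limma adjusted p = 0.664) and, without wild type replicate 3, -0.06 (-0.25 to 0.13, limma adjusted p = 0.68). The A2_at probe set read 7.19 to 7.27 in DpDf and 7.28 to 8.22 in wild type, under the background bound on all 6 arrays. It was tested only with no filter on low values, and was lower in DpDf. Its difference there was -0.41 (limma adjusted p = 0.562) and, without wild type replicate 3, -0.11 (limma adjusted p = 0.425). Within each array, the _a_at value minus the A1_at value was 2.04, 1.92 and 1.95 in DpDf and 1.32, 1.67 and 1.85 in wild type. The mean gap differed by 0.36 between the groups and by 0.48 without wild type replicate 3, and the groups did not overlap. This pair of probe sets was chosen after its values were seen, so the gap is given with no test. It was highest in DpDf replicate 1, which also had the highest 3′ to 5′ signal, and the part of that signal was not tested.

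**Figure D3:**
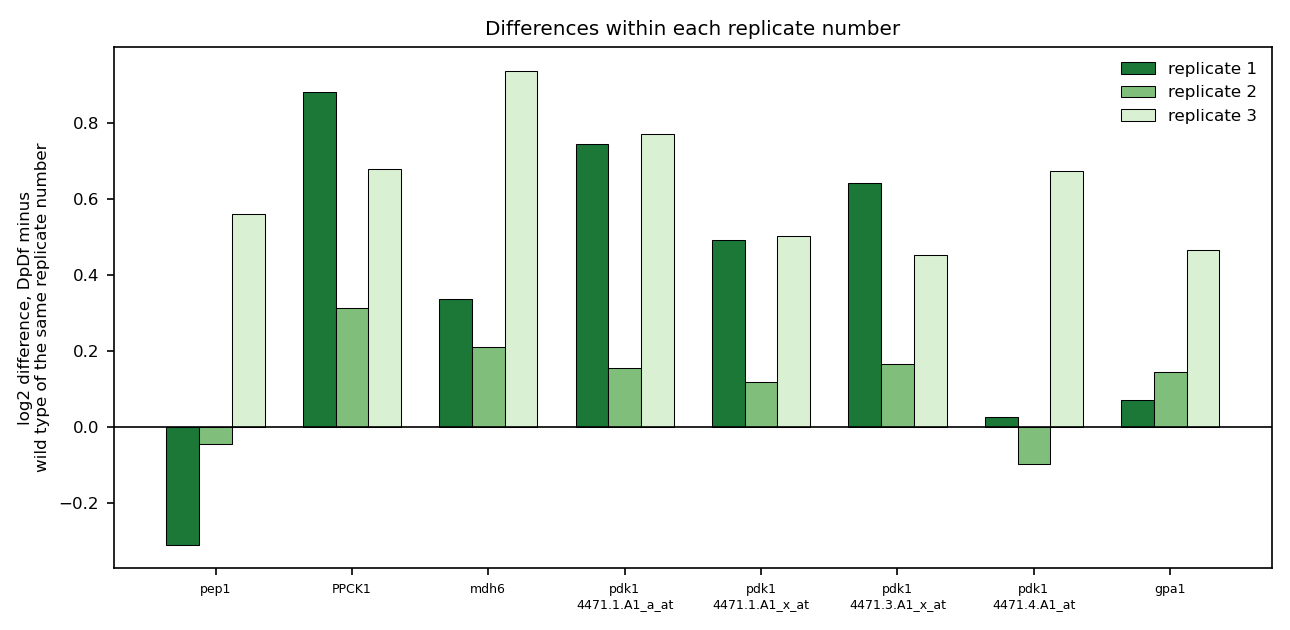
Bars give the log2 difference between the DpDf and the wild-type pool of the same replicate number, drawn from the same lot of sibling seedlings, for the 8 member probe sets tested. PPCK1, mdh6, gpa1 and 3 probe sets of pdk1 are above 0 in all 3 pairs, and pep1 is above 0 only in replicate 3 (0.56), whose wild-type pool is the array that stands apart.

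The Calvin cycle gene gpa1 (LOC542368) read 12.49, 12.64 and 12.71 in DpDf and 12.42, 12.49 and 12.24 in wild type. DpDf pools lay higher, the lowest of them by only 0.0033, with means of 12.61 ± 0.11 and 12.38 ± 0.13 (SD, n = 3 each). The difference was 0.23 (95% interval -0.08 to 0.54, limma adjusted p = 0.562) with all 6 arrays and 0.16 (-0.05 to 0.37, limma adjusted p = 0.346) without wild type replicate 3. Relative to the median of all probe sets these were 0.05 and 0.14. DpDf replicate 1, the highest pool of PPCK1, mdh6 and pdk1, was the lowest DpDf pool of gpa1.

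For other genes of the C4 cycle and the PEPC family, the differences lay mostly below the median difference of all probe sets. Of 7 such genes, 0 were called in either setting. With all 6 arrays 0 of the 7 lay above the median of all probe sets, and their own median difference was 0.01. Without wild type replicate 3, 1 of the 7 did, and their median was -0.12 against 0.02 over all probe sets. The gene me3, which encodes the NADP-malic enzyme of bundle sheath chloroplasts, lay at 0.05 and, without wild type replicate 3, at -0.09. For pdrp1, which encodes the regulatory protein that switches PPDK off and on by phosphorylation, these values were 0.01 and -0.25 (limma adjusted p = 0.98 and adjusted p = 0.267). The PEPC genes pep4 (-0.34 and -0.19) and pep7 (-0.02 and -0.07) and ppt1, a phosphoenolpyruvate transporter gene of plastids (0.02 and -0.17), were no higher in DpDf on average than the median gene. The cytosolic malate dehydrogenase gene mdh4 lay at -0.04 and -0.12, and the malic enzyme gene me2 at 0.15 and 0.10. The whole list is given because it is short, although the rule for named genes called for 3 of it.

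Genes of the Calvin cycle and of greening were not called in either setting. The Rubisco small subunit gene rbcs lay at 0.07 with all 6 arrays and at 0.03 once wild type replicate 3 was left out, the Rubisco activase gene rca at 0.33 and 0.02, and gpb1, the subunit B partner of gpa1, at 0.16 and -0.09. Whether gpa1 and gpb1 differ was not tested. Of 3 genes for greening, chli, for a subunit of magnesium chelatase, lay at 0.17 and -0.12, glk1, a regulator of chloroplast development, at 0.20 and 0.13, and elm1, needed for the phytochrome chromophore, at 0.04 and 0.04.

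Photosystem and light-harvesting genes were summed as a rough measure of green tissue. Their list also held ferredoxin genes (fdx2, fdx3 and fdx6) and ferredoxin-NADP reductase genes (fnr1, L-FNRI and L-FNRII). Whether each of these marks green cells was not tested, so the sum may not measure green tissue alone. Of the 22 probe sets of the list kept, 8 lay above the median of all probe sets in the full comparison. Leaving out wild type replicate 3 made this 14, and 1 was then called, a probe set of the ferredoxin-NADP reductase gene fnr1. It was lower in DpDf (-0.89, limma adjusted p = 0.0192, against -0.53 and adjusted p = 0.562 with all 6 arrays). The other fnr1 probe set kept lay at -0.22 with all 6 arrays and at -0.44 without wild type replicate 3 (limma adjusted p = 0.634 and adjusted p = 0.148). In the same order, the reductase genes L-FNRI (0.007 and 0.026) and L-FNRII (0.27 and 0.14) were not lower in DpDf on average. Differences in the list ran from -0.53 to 0.58 with all 6 arrays and from -0.89 to 0.32 without wild type replicate 3. The highest in both was that of psad1 (limma adjusted p = 0.497 and adjusted p = 0.0724), whose groups did not overlap. The genes psad1, L-FNRI and L-FNRII are named outside the rule for named genes. The list's median was 0.11 and 0.07. Its summed intensity was 17.37 to 17.43 on the log2 scale in DpDf and 17.15 to 17.37 in wild type (17.30 to 17.37 without wild type replicate 3), and the lowest DpDf sum exceeded the highest wild-type sum by only 0.0032. Of all single probe sets, 23.2% and 25.4% lay apart in the same direction with all 6 arrays and without that one. No such share was obtained for sums of 22 probe sets, so these percentages are not a measure of how often a sum would lie apart. For the Calvin cycle genes the sums were 14.36 to 14.41 and 14.09 to 14.39 and overlapped. Of the 24 probe sets of photosystem and light-harvesting genes on the array, 1, of fnr1, lay under the background bound on all arrays. The part of green tissue in the pdk1 and PPCK1 values was not tested.

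Among 7 genes of nitrogen assimilation, which draws on PEPC for carbon skeletons, 0 were called. Their median was 0.09 and, without wild type replicate 3, -0.18. The nitrate reductase gene nnr1 lay at -0.47 and -0.76 (limma adjusted p = 0.564 and adjusted p = 0.115), and the glutamine synthetase genes gln2 and gln5 at -0.18 and -0.68 and at 0.26 and 0.33. Genes of leaf primordia (10 kept) had medians of 0.20 and 0.01, with ocl4 at -0.17 and -0.41, yab10 at 0.42 and 0.23 and ocl3 at 0.43 and 0.18. Meristem genes (3 kept) had medians of 0.07 and 0.05, with kn1 at 0.07 and 0.03, lg3 at 0.07 and 0.05 and fea2 at 0.62 and 0.12. In these 2 lists 0 genes were called in either setting.

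**Figure D4:**
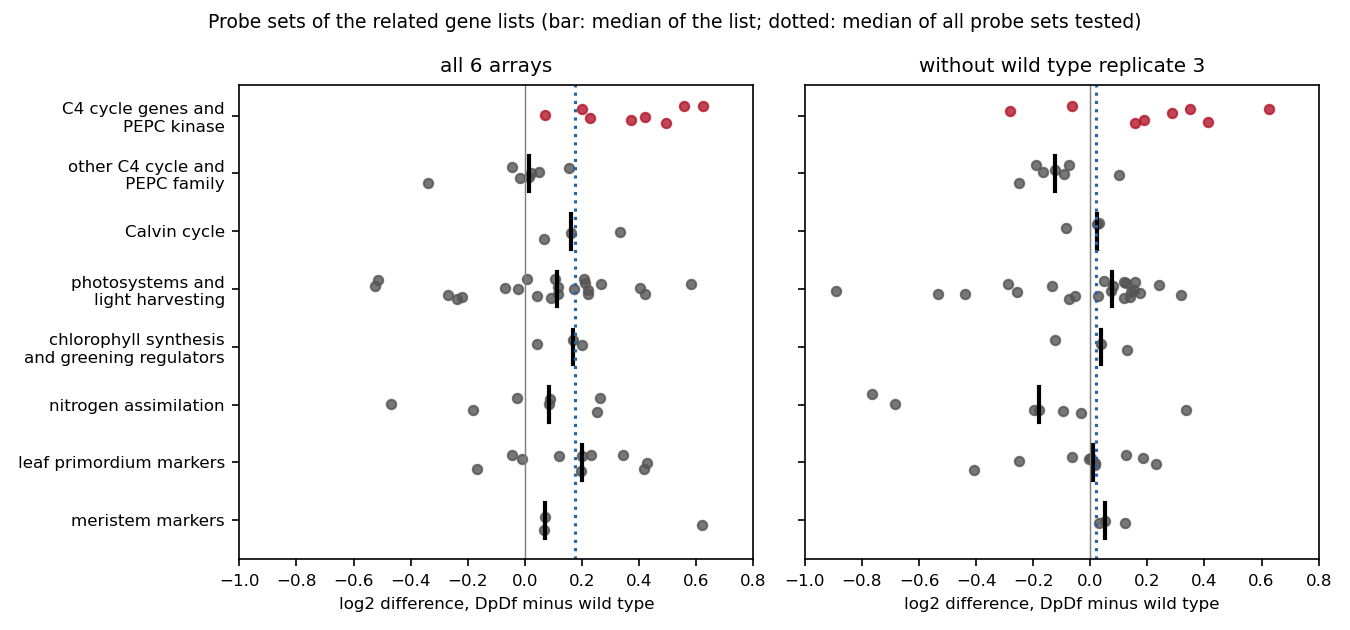
Points are log2 differences, DpDf minus wild type, of single probe sets by gene list, with all 6 arrays on the left and without wild type replicate 3 on the right. Black bars are list medians and the dotted line is the median of all probe sets tested, 0.18 and 0.02. The other C4 cycle and PEPC genes lie at or left of the dotted line except me2 on the right (0.10). In the left panel the member probe sets lie right of the dotted line except pep1, and in the right panel except pep1 and the A1_at probe set of pdk1.

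The members followed different patterns over the arrays. With each array's median taken off, the named gene of most similar profile over the 6 arrays to pep1 was cl122_1 (Pearson r = 0.996), followed by gln1, the plastid glutamine synthetase gene (0.981), and gpb1 (0.981). For the A1_at probe set of pdk1 it was bsd2, a gene needed for Rubisco accumulation (0.985), followed by LOC542483 (0.976) and LOC732747 (0.975). The profile of PPCK1 was closest to that of Bk2L3 (0.99), arf1 (0.962) and thi1, a thiamine synthesis gene (0.959). That of the _a_at probe set of pdk1 was closest to see2a (0.963), tbp2 (0.949) and the cellulose synthase gene CesA12 (0.943), that of its first _x_at probe set to PIP1-3, an aquaporin gene (0.981), cl181_1c (0.96) and copz2 (0.955), and that of its second to the expansin gene expB6 (0.991), a2 (0.989) and cl181_1c (0.972). The profile of mdh6 was closest to ltk1 (0.989), ALDH10A5 (0.985) and the kinase gene PDK1 (0.982), and that of gpa1 to GOS2 (0.965), expB7 (0.963) and INO1 (0.944). Over the 5 arrays without wild type replicate 3 these coefficients were 0.924 to 0.999. Among the members themselves, PPCK1 and the _a_at probe set of pdk1 gave r = 0.82 over the 6 arrays. With the first and second _x_at probe sets of pdk1 PPCK1 gave 0.859 and 0.892, but with its A1_at probe set -0.322. With pep1 it gave -0.696, with mdh6 0.156 and with gpa1 0.468. All of these values describe 6 arrays that share the genotype difference, and the highest of 978 named probe sets is high by selection.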

How the data were processed

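RNA of 6 pools was measured, 3 of DpDf and 3 of wild-type plants, with 1 array each. The authors deposited linear intensity values. The submitters' processing notes name GCOS 1.2 and GCRMA, without their roles, and how background and scaling were handled is not given in the sources used here. An array has no read depth. The analysis used log2(intensity + 1) without the 113 control probe sets, and 10661 of 17621 probe sets with at least 3 of 6 arrays at their own 40th percentile were kept. DpDf was tested against wild type in limma 3.58.1 (R 4.3.3) with no block, adjusted by Benjamini-Hochberg over all probe sets kept, after the fit was tested on simulated data.

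Names came from the platform table, with 1 symbol for 1452 probe sets, several symbols for 1 and no symbol for 16168. Of 1108 gene identifiers 1060 matched RefSeq of Zm-B73-REFERENCE-NAM-5.0, used only for names, chromosomes and gene order. Members and lists were chosen with earlier results of these data known, and the lists were corrected once the array's names were seen (aliases of other genes dropped, and pep7, L-FNRI, L-FNRII, Lhcb5-2, psbq1, fdx6 and pgr5 added). Named genes were all members, the called genes of each list or else its 3 of smallest p, and the 3 closest profiles of each member. Per the labels' protocols, both pools of a biological replicate came from 1 lot of selfed sibling seedlings, so the number marks a shared lot. Over probe sets, the deviations of such pairs from their group means correlated at 0.076, -0.164 and 0.195. The wild-type means include wild type replicate 3, the array that stands apart, so these values cannot decide whether the lot had an effect. Alternatives were another pseudocount, no filter, quantile normalization, median centring, the block, array weights (gene-by-gene method) and leaving out arrays.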

Additional observations from a re-analysis of the deposited data

How the results depend on the processing

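With 3 probe sets called in all, leaving out single pools gave 2 to 355, the highest without wild type replicate 3. That pool left out together with another choice, an alternative added after the data were seen, gave 306 with quantile normalization, 260 with median centring, 364 with no filter, 351 with a pseudocount of 16 and 753 without DpDf replicate 1 as well. Array quality weights gave 1224. The replicate block, which pairs pools of the same seedling lot, gave 3, and without replicate 3 of both groups 4, and it changed no call of a member. Of the alternative values of the members, 124 kept direction and side of the threshold and 2 passed it, both of PPCK1. The other 18 turned direction, none of them called. For pep1 the difference turned to -0.28 without wild type replicate 3, -0.12 with quantile normalization and with median centring, -0.18 in the blocked fit without replicate 3 and -0.24 with array weights. Without wild type replicate 3 it was -0.31, -0.32, -0.28, -0.28 and -0.35 under the 5 added alternatives in the order above. Leaving out single pools gave -0.28 to 0.33. For the A1_at probe set of pdk1 it turned to -0.063 without wild type replicate 3, -0.035 in that blocked fit, -0.086 with array weights and -0.11, -0.10, -0.063, -0.062 and -0.12 under the added alternatives, and leaving out single pools gave -0.063 to 0.34. The cause was not tested. The 8 probe sets tested exceeded the background bound on all arrays. That bound is only a percentile of each array's own values, so whether background signal limited these probe sets was not tested.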
